A study of Mus musculus with 5 samples.

Results

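Chemokine receptors and the sphingosine 1-phosphate receptor S1pr1 set where a T cell can travel, and 6 of these genes are described here across 5 arrays: Ccr7, Cxcr4 and S1pr1, which serve traffic through and out of lymph nodes, and Cxcr3, Ccr4 and Ccr6, which serve entry into tissues. The members were all probe sets annotated to these 6 genes, which gave 7 of 12422 probe sets (control probe sets aside), 2 of them for S1pr1 and 1 for each other gene. The cells were CD44-low CD8 T cells from lymph nodes of C57BL/6 mice with the OT-1 T cell receptor transgene, aged 6 to 8 weeks. They were stimulated in culture on latex microspheres that displayed antigen, a peptide bound to H-2Kb, together with B7-1, the ligand of CD28. The 3 groups were antigen and B7-1 with IL-21 at 72 h (1 array), the same stimulus with IL-21 at 48 h (2 arrays) and antigen and B7-1 without IL-21 at 48 h (2 arrays). Human recombinant IL-2 was in every culture, the IL-21 was murine, and the microspheres stood in for antigen-presenting cells. The labels call the samples biological replicates without saying whether mice or cultures were separate, and the p-values reflect only how far these samples vary, which may be technical.

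All 6 receptors are proteins with 7 membrane spans, and they signal mainly through heterotrimeric G proteins of the Gi class to steer cell migration. CCR7 responds to CCL19 and CCL21 and brings naive and central memory T cells into lymph nodes. CXCR4 responds to CXCL12 and draws lymphocytes towards bone marrow and lymphoid stroma, and S1PR1 senses sphingosine 1-phosphate in lymph and blood and lets T cells leave the lymph node. CXCR3 responds to CXCL9 and CXCL10 and takes effector T cells into inflamed tissue. CCR4, the receptor of CCL17 and CCL22, is used in traffic to skin and lung, and CCR6, the receptor of CCL20, in traffic to mucosal surfaces. In a CD8 T cell response, antigen recognition is known to lower the transcripts of Ccr7 and S1pr1 for a time, and transcription factors such as KLF2 are known to promote S1pr1.

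On the 72 h array with IL-21 the transcripts of Cxcr4 and Ccr7 were higher, and that of Ccr4 was lower, than on the 48 h arrays with IL-21. Cxcr4 rose 7.88-fold and Ccr7 2.30-fold, while Ccr4 fell 4.43-fold. Cxcr3 was 2.84-fold higher and Ccr6 1.73-fold lower without passing the test, and S1pr1 lay near background. At 48 h no receptor passed the test between cultures with and without IL-21. The tissue receptors did not share a direction at 72 h, with Cxcr3 the higher and Ccr4 the lower.

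The start regions of Cxcr4 and Ccr4, the 2 genes with the largest called differences, are shown. Their transcripts differed in opposite directions between the 72 h array and the 48 h arrays with IL-21. They are RefSeq windows on GRCm38.p6, from 250 bases before to 50 bases after the annotated start, and 4 of the 6 receptor genes matched such a window. Capitals mark matches, on either strand, to CACCC, the core bound by KLF proteins, to TATAAA, the TATA box, and to TGAGTCA, the site of AP-1. GTAAACA, the site of FOXO proteins, was searched as well and was in neither window. Both lie on the minus strand, Cxcr4 at chr1:128592250-128592549 and Ccr4 at chr9:114496495-114496794, and are printed 5′ to 3′ in the direction of transcription.
Cxcr4: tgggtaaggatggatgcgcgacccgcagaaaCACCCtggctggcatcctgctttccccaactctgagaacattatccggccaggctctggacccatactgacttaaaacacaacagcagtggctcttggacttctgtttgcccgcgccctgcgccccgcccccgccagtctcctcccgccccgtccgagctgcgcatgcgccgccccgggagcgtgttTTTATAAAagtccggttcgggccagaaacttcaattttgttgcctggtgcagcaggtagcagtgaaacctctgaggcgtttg
Ccr4: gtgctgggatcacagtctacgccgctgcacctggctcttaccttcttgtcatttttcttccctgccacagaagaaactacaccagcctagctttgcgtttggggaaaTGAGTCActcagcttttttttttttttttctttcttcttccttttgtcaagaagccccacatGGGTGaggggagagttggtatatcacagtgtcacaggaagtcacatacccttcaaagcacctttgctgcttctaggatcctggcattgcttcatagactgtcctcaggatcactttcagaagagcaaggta
Each window held 1 CACCC match, and 57.5% of the 32851 windows of this length held at least 1 on either strand. The Cxcr4 window held TATAAA on both strands in an overlapping stretch, which 13.6% of windows hold at least once, and no AP-1 match. The Ccr4 window held 1 TGAGTCA, found in 5.2% of windows, without a TATA box match. The FOXO site was in 3.65% of windows. None of the 4 motifs was found in the window of Cxcr3 or in either window of Ccr6. These matches are descriptions of the letters, and binding was not measured.

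Signals are probe set intensities, normalised by quantiles over the 5 arrays, with an offset of 1.53 signal units added. The offset shrinks differences of dim probe sets, and higher or lower means relative to most other probe sets. Before normalisation the arrays differed in overall signal, with trimmed means of 65.9 on the 72 h array, 105 and 106 at 48 h with IL-21, and 75.4 and 65.3 without it. A filter kept the 7453 probe sets whose mean log2 signal exceeded the 40th percentile. It kept 5 of the 7 receptor probe sets and removed both of S1pr1. Over all 5 arrays, on which the filter was set, Ccr6 lay at percentile 42.2 of signal, only just inside it, and Cxcr4 at 47.7. Ccr6 did not pass the filter when replicate 1 of the cultures without IL-21 was left out. Over the 48 h arrays alone Cxcr4 lay at the 41.4th percentile, and on the 72 h array at the 73.9th. In limma at an adjusted p under 0.05, 832 of the 7453 probe sets (11.2%) passed at 72 h against 48 h, 301 of them higher (4.04%) and 531 lower (7.12%). The higher share of these calls was 36.2%, and it was 4.75% in unscaled values, 18.1% with arrays centred on their medians and 73.7% with arrays scaled on 9 hybridisation control probe sets. Of the receptor probe sets kept, 3 of 5 passed, 2 higher and 1 lower, and the same 3 had an unadjusted p under 0.05, as had 27.3% of all. For IL-21 against none at 48 h, 0 of 7453 passed in limma, 327 (4.39%) had an unadjusted p under 0.05, Ccr7 among them, and the smallest adjusted p was 0.465. With 5 arrays the number of arrays limits the precision, and the lone 72 h array was assumed to vary like the 48 h groups. As a check of the cells, the array held 9 of 10 CD8 T cell markers, all 9 kept, and their summed signal was 8512 on the 72 h array, 5888 and 6439 with IL-21 at 48 h, and 5753 and 5858 without. At 72 h 3 of them rose in limma (Cd3d, Cd3g and Thy1) and 0 fell, and Cd8a read 506 on the 72 h array, 690 and 753 with IL-21 at 48 h, and 414 and 401 without.

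**Figure D1:**
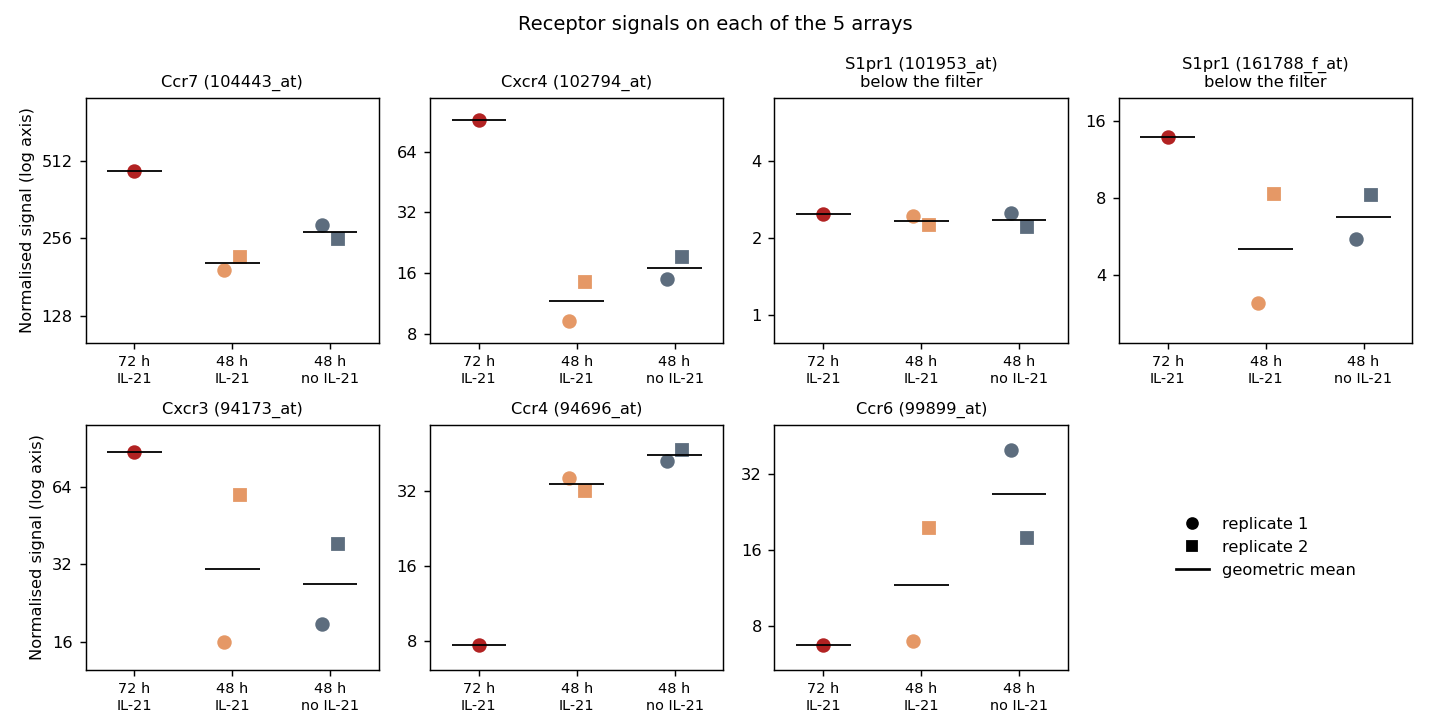
Normalised signal (log axis, offset included) of the 7 receptor probe sets on each of the 5 arrays, by group. Circles are replicate 1, squares replicate 2 and bars geometric means. Cxcr4 stands at 91.5 on the 72 h array and at 19.3 or lower on the other arrays, and Ccr4 at 7.72 against 32.2 or higher.

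Ccr7, the entry receptor of lymph nodes, had little spread between replicates, with SDs of 0.12 with IL-21 and 0.13 without on the log2 scale (n = 2 each). Its signal was 470 on the 72 h array, 193 and 217 on the arrays of IL-21 cultures at 48 h, and 289 and 255 on those without IL-21. The 72 h array thus stood above all 4 arrays at 48 h, and the 2 groups at 48 h did not overlap, with IL-21 the lower. From 48 to 72 h with IL-21 the log2 difference was 1.20 (SE 0.19, limma adjusted p = 0.0187). It passed in 9 of the 14 settings tried, and the excess over the all-probe-set median was between 1.08 and 1.33. Arrays centred on their medians gave 0.91 (limma adjusted p = 0.105), and unscaled values gave 0.50 (adjusted p = 0.188).

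Cxcr4 differed most. Its signal was 91.5 on the 72 h array, 9.33 and 14.4 at 48 h with IL-21, and 15.0 and 19.3 without. It was dim on every 48 h array and the 72 h array was above all of them, by 2.24 to 3.29 on the log2 scale. The log2 difference between 72 and 48 h with IL-21 was 2.98 (SE 0.45, limma adjusted p = 0.0180), the 28th largest in size of 7453. In the deposited values before any scaling Cxcr4 stood at 74.1 at 72 h, against 10.6 and 14.5 at 48 h with IL-21, so its direction did not rest on the normalisation. The value under the 3 other scalings and the other settings lay between 2.01 and 3.35. Detection calls were not used here, so the 48 h level from which the fold is taken is uncertain.

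The probe sets of S1pr1 disagreed, and both lay below the filter. The first read 2.48 at 72 h, 2.43 and 2.25 with IL-21 at 48 h, and 2.50 and 2.20 without, of which the added offset makes up most. The second, whose identifier carries the suffix f for probes shared within a family of transcripts, read 13.8 at 72 h, 3.11 and 8.27 with IL-21 at 48 h, and 5.55 and 8.25 without. The second was thus higher at 72 h than on each 48 h array, while the first was flat near the floor of the array. In the fit without the filter the log2 differences between 72 and 48 h were 0.09 (SE 0.32, limma adjusted p = 0.935) and 1.45 (SE 0.73, limma adjusted p = 0.362). No change of S1pr1 was detectable with these probe sets.

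Cxcr3, the tissue receptor most often linked to effector CD8 T cells, varied widely within groups. Its signal was 87.5 on the 72 h array, 15.9 and 59.6 at 48 h with IL-21, and 18.7 and 38.3 without. The 72 h array was the highest of the 5, but replicate 2 was higher than replicate 1 in both 48 h groups, by 1.90 with IL-21 and 1.03 without on the log2 scale. The log2 difference between 72 and 48 h was 1.51 (SE 0.82, 95% interval -0.49 to 3.50, limma adjusted p = 0.299). Against replicate 1 alone it was 2.46, and against replicate 2 alone 0.55. Scaled on the hybridisation controls, where the median of all probe sets was 0.33, it was 1.79 and passed (limma adjusted p = 0.00171). Relative to the median it was 1.47 there, against 1.52 in the reported fit, so the relative difference was no larger. The SE of its 48 h difference was 0.37 in that fit, against 0.67 as reported, while that of Ccr7 was 0.30, against 0.15. The pass thus came with a smaller error estimate for a gene whose replicates varied widely, and is not counted as support.

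Ccr4 was the receptor that fell. Its signal was 7.72 on the 72 h array, 36.3 and 32.2 at 48 h with IL-21, and 42.3 and 47.0 without. The 48 h arrays lay close together and the 72 h array was far below them. The log2 difference between 72 and 48 h with IL-21 was -2.15 (SE 0.33, limma adjusted p = 0.0179), the 121st largest in size of 7453. With an offset of 16 it was -1.13. Unscaled values gave 5.78 at 72 h, against 47.5 and 35.5 at 48 h with IL-21. The 72 h level is near background, so the size of the fall is uncertain.

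Ccr6 was dim and scattered. Its signal was 6.72 on the 72 h array, 6.94 and 19.5 with IL-21 at 48 h, and 39.8 and 17.8 without. The 72 h array was the lowest of the 5, but 1 of the 48 h arrays with IL-21 was almost as low. The log2 difference between 72 and 48 h was -0.79 (SE 0.81, 95% interval -2.76 to 1.18, limma adjusted p = 0.591). It was -0.05 against replicate 1 alone and -1.54 against replicate 2 alone.

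The 3 calls at 72 h depended on both 48 h arrays with IL-21. Without replicate 1 of that group the differences were 2.67 for Cxcr4, 1.13 for Ccr7 and -2.04 for Ccr4 (limma adjusted p = 0.0839, 0.0906 and 0.0901). Without replicate 2 they were 3.24, 1.27 and -2.21 (limma adjusted p = 0.0627, 0.0730 and 0.0751). In these 2 fits 0 of all 7453 probe sets passed, while 1703 and 1748 had an unadjusted p under 0.05. Without the variance trend 0 passed as well, with 1843 at an unadjusted p under 0.05. All 5 receptors kept by the filter lay outside the range of the 4 arrays at 48 h, 3 above and 2 below, as did 64.2% of all probe sets, 30.4% above and 33.8% below. Against the 48 h arrays with IL-21 alone, 78.6% of all probe sets lay outside their range.

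**Figure D2:**
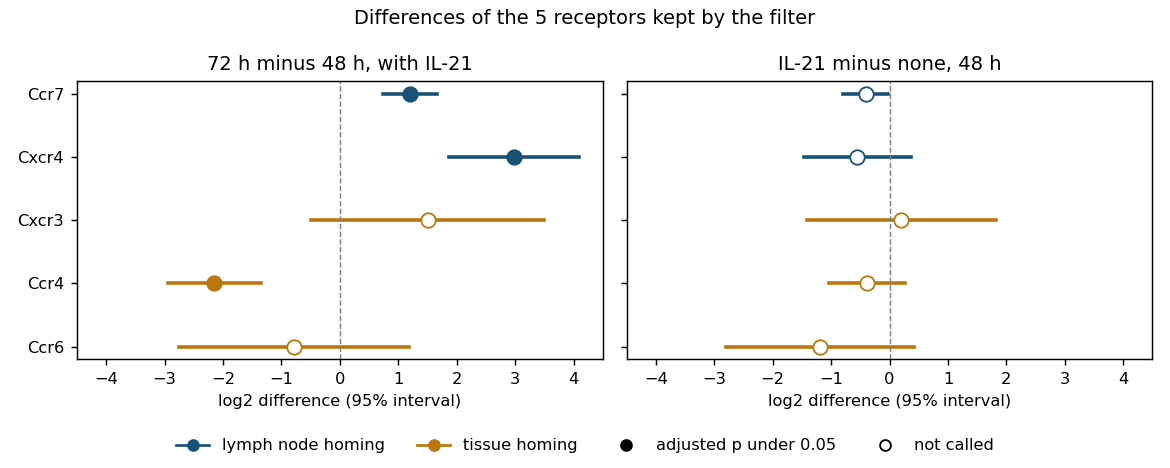
Log2 differences, 72 h minus 48 h with IL-21 on the left and IL-21 minus none at 48 h on the right, with 95% intervals from limma, for the 5 receptors kept by the filter. Cxcr4 (2.98), Ccr7 (1.20) and Ccr4 (-2.15) pass on the left, and none passes on the right.

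**Figure D3:**
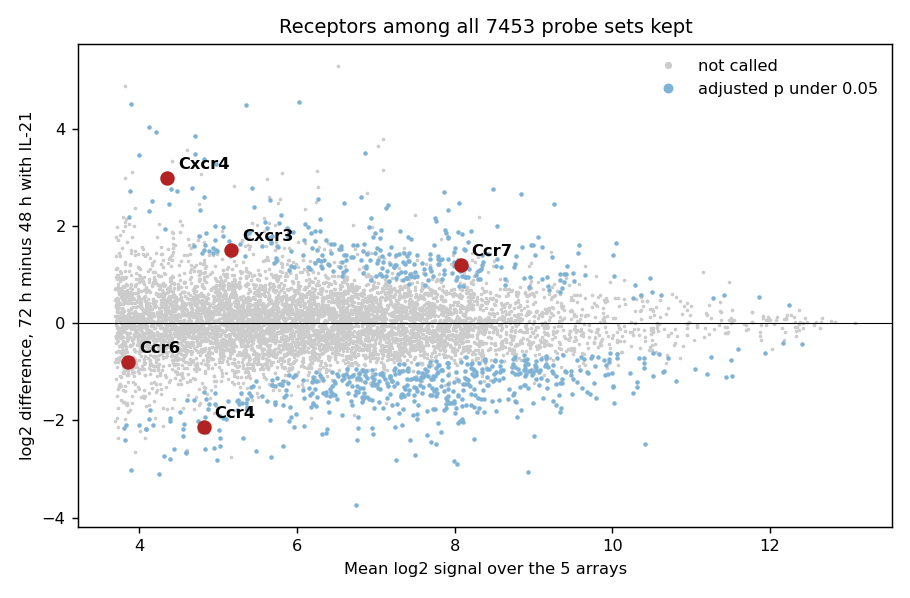
Log2 difference between 72 and 48 h with IL-21 against mean log2 signal over the 5 arrays for the 7453 probe sets kept, with the 5 receptors in red. Cxcr4 (2.98) lies above and Ccr4 (-2.15) below most probe sets of like signal, and neither is the most extreme.

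At 48 h the question was whether IL-21 changed these receptors beside antigen and B7-1. The normalised signal of 4 of the 5 receptors kept was lower with IL-21, and that of Cxcr3 was higher. The log2 difference was -0.41 for Ccr7 (SE 0.15, 95% interval -0.79 to -0.03), with an unadjusted p of 0.0385 and a limma adjusted p = 0.967. It was -0.55 for Cxcr4 (interval -1.46 to 0.36), -0.39 for Ccr4 (-1.04 to 0.27), -1.19 for Ccr6 (-2.80 to 0.41) and 0.20 for Cxcr3 (-1.42 to 1.83), with limma adjusted p between 0.967 and 0.997. These intervals leave room for differences of 2-fold or more in either direction for Cxcr3, and in the lower direction for Cxcr4, Ccr4 and Ccr6.

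The groups at 48 h did not overlap for 3 of the 5 receptors, Ccr7, Cxcr4 and Ccr4, all lower with IL-21. Among all probe sets kept, 33.8% did not overlap and 17.9% did so with IL-21 the lower and 15.9% with it the higher. Scalings that moved all probe sets together moved these values with them. In unscaled values, where the median of all probe sets was 0.57, Ccr7 was 0.16 and Ccr4 0.18, which is -0.41 and -0.39 relative to that median. With arrays scaled on the hybridisation controls, where the median was -0.43, Cxcr3 was -0.20, or 0.23 relative to it. With each array left out in turn Ccr7 lay between -0.50 and -0.32 and Ccr6 between -1.92 and -0.45 in the 3 such fits in which it passed the filter, while Cxcr3 ran from -0.74 to 1.16. For Ccr6 the -1.19 rests on replicate 1 of both groups, 6.94 with IL-21 and 39.8 without, while replicate 2 read 19.5 with IL-21 and 17.8 without.

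Set against each other as classes, the lymph node receptors were higher on average and the tissue receptors lower at 72 h than at 48 h with IL-21. The lower tissue mean rested on replicate 2 of the 48 h arrays with IL-21. Relative to the mean of the 48 h arrays without IL-21, the tissue mean was -0.94 on the 72 h array and 0.08 on that replicate 2. On replicate 1 with IL-21 the tissue mean was already slightly below that of the 72 h array. With S1pr1 read from its second probe set (1.45), which lay below the filter, the mean log2 change was 1.88 over Ccr7, Cxcr4 and S1pr1 and -0.48 over Cxcr3, Ccr4 and Ccr6, a difference of 2.35 that is given without a test. The 72 h array exceeded each of the 4 arrays at 48 h on this measure, by 2.18 and 2.52 over those with IL-21 and by 2.47 and 2.23 over those without. At 48 h both classes changed by -0.46 on average with IL-21, but this rested on replicate 1 with IL-21. Relative to the mean of the 48 h arrays without IL-21, the lymph node mean was -0.83 on replicate 1 and -0.09 on replicate 2. The tissue mean was 0.08 on replicate 2 and far lower on replicate 1. The difference between the classes was -0.00, with an SD of that difference between arrays of 0.24 with IL-21 and 0.17 without (n = 2 each). The tissue mean at 72 h joins Cxcr3, which was higher, with Ccr4 and Ccr6, which were lower, and describes none of the 3. With both S1pr1 probe sets averaged the difference was 2.13. Leaving out S1pr1, an alternative chosen after seeing the data, gave a difference of 2.57, and an offset of 16 gave 1.35.

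**Figure D4:**
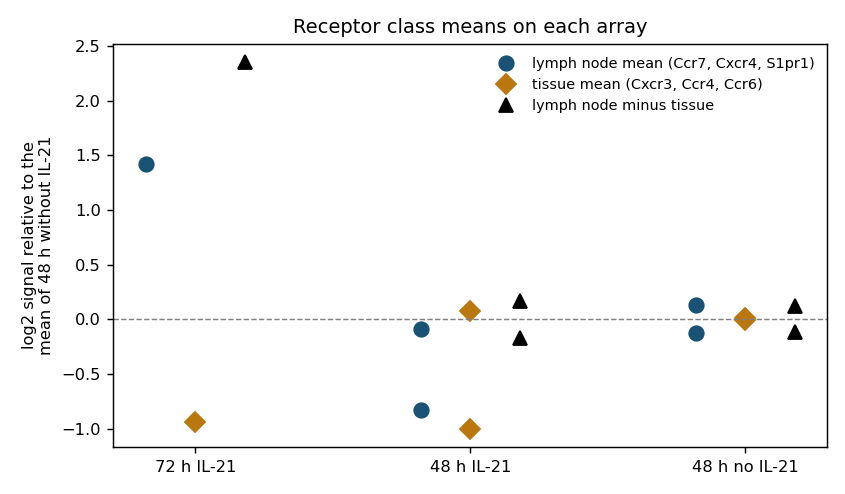
Mean log2 signal of the lymph node receptors (circles), of the tissue receptors (diamonds) and their difference (triangles) on each array, relative to the mean of the 48 h arrays without IL-21. The difference stands at 2.35 on the 72 h array and between -0.17 and 0.17 on the 4 arrays at 48 h.

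Some genes that work beside the lymph node receptors rose at 72 h. Of the list of lymph node homing and egress partners, the array held 9 of 13 genes. Klf2 and Itga4 lay below the filter and 7 genes were kept. Of the 7 kept, 3 rose, 0 fell and 4 did not pass, where 4.04% of all probe sets rose and 7.12% fell. All 7 had a positive sign, and the median log2 difference was 1.02, against -0.01 over all probe sets. Itgb7, a beta chain of integrins such as the one that binds MAdCAM-1 in gut lymphoid tissue, had 1741 at 72 h, against 171 and 392 at 48 h with IL-21 (2.75, SE 0.54, limma adjusted p = 0.0300). The same chain also pairs with Itgae, which is on the tissue list, so its higher signal is not particular to lymph node homing. Itgb2, the beta chain of LFA-1, had 346 against 166 and 134 (1.22, SE 0.22, limma adjusted p = 0.0254), and Lef1, a transcription factor of naive and memory T cells, had 1000 against 458 and 580 (0.96, SE 0.19, limma adjusted p = 0.0321). Il7r, the IL-7 receptor chain kept by naive and memory cells, had 364 against 64.3 and 125 and did not pass (2.02, SE 0.63, limma adjusted p = 0.0984).

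Klf2, the transcription factor known to promote S1pr1, was removed by the filter because it was near background at 48 h. It read 115 on the 72 h array, 4.16 and 4.43 at 48 h with IL-21, and 4.75 and 5.65 without. In the fit without the filter, in which 4.76% of 12422 probe sets passed at 72 h, 1.66% higher and 3.10% lower, Klf2 passed as higher (limma adjusted p = 0.0149). The size of its difference depends on the floor at 48 h and is not given. Itgae, the integrin chain CD103 that holds T cells in epithelium, was likewise dim at 48 h. It read 28.1 at 72 h, against 2.43 and 2.41 at 48 h with IL-21, and passed as higher without the filter (limma adjusted p = 0.0239), its size again set by the floor. A second Itgae probe set read 4.25 at 72 h, against 1.90 and 2.40. Thus some genes of the lymph node list, and Itgae of the tissue list, were both higher on the 72 h array. Cd69 and Rgs1 were not analysed here.

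S1pr4, a lymphocyte receptor of the same ligand as S1pr1, was measured more clearly than S1pr1. It read 357 at 72 h, against 72.9 and 135 at 48 h with IL-21 and 91.4 and 106 without. Its log2 difference between 72 and 48 h was 1.85 (SE 0.38, limma adjusted p = 0.0335), and it was the 1 gene that rose among the 7 kept of 16 other S1P receptors and enzymes, with 0 lower (median 0.09), beside 4.04% higher and 7.12% lower over all probe sets. With arrays centred on their medians it was 1.53 (limma adjusted p = 0.0542). The phosphatase gene Sgpp1 (-0.49), the lipid phosphatase gene Plpp1 (-1.09) and S1pr2 (0.40) did not pass.

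Other chemokine receptors were mostly dim. Of 18 listed, 14 were on the array, 3 passed the filter, and none of these 3 passed the limma test at 72 h: Cx3cr1 (0.29), Xcr1 (-0.49) and Ccrl2 (0.21), with adjusted p between 0.560 and 0.796. Of the ligands, 5 of 9 were on the array and only Ccl22 passed the filter, at 52.6 on the 72 h array against 57.2 and 55.7 at 48 h with IL-21. Ccl22 is a ligand of CCR4, and its difference was -0.10 (limma adjusted p = 0.875).

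Genes of tissue homing and adhesion were mixed at 72 h. The array held 13 of 14 listed, and 10 were kept, of which 1 rose, 0 fell and 9 did not pass, with a median of 0.12, beside the same 4.04% and 7.12%. Selplg, the selectin ligand PSGL-1, rose to 2320, against 1115 and 1338 at 48 h with IL-21 (0.93, SE 0.16, limma adjusted p = 0.0234). Fut7, the fucosyltransferase that makes PSGL-1 bind selectins, was 0.90 and Cd44, a hyaluronan receptor of activated T cells, 1.02 (limma adjusted p = 0.107 and 0.0996). Icam1, the ligand of LFA-1, was -1.25 (limma adjusted p = 0.0746).

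Of the genes that couple these receptors to movement, 7 rose at 72 h. The array held 31 of 38 listed, all of them kept. None fell and 24 did not pass, beside 4.04% higher and 7.12% lower over all probe sets. Of the 31, 26 had a positive sign and 5 a negative one, and the median was 0.52. Rhoh, a small GTPase of blood cells, had 352 at 72 h, against 112 and 128 at 48 h with IL-21 (1.56, SE 0.25, limma adjusted p = 0.0187). Dock2, the Rac activator needed for lymphocyte migration to chemokines, had 220 against 80.2 and 85.8 (1.41, SE 0.23, limma adjusted p = 0.0208). Arhgef1, an exchange factor downstream of G proteins, rose by 1.39, the G protein subunit gene Gnb2 by 0.86, Grk6, a kinase that desensitises chemokine receptors, by 0.91, and Rac2 and Rgs14 by 0.65 and 0.80 (limma adjusted p between 0.0204 and 0.0478). Rgs16, which shortens Gi signals, was at 113, against 213 and 287 at 48 h with IL-21 (-1.13, limma adjusted p = 0.0938).

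These lists were sensitive to the scaling. In unscaled values, in which the median of all probe sets was -0.58, the medians were 0.50 for lymph node partners, -0.08 for coupling genes, and -0.42 for tissue adhesion and for S1P genes, and 1, 0, 0 and 1 of their genes rose while 0, 1, 3 and 0 fell. With arrays centred on their medians, where all probe sets had a median of -0.17, the medians were 0.91, 0.33, -0.01 and -0.01, and 1, 1, 0 and 0 genes rose. With arrays scaled on the hybridisation controls, where the median was 0.33, the medians were 1.41, 0.83, 0.49 and 0.49, and 4, 9, 3 and 1 genes rose. Without either 48 h array with IL-21, 0 genes of any of these lists passed in limma. At 48 h, between IL-21 and none, none of the members of these lists passed in limma. The medians at 48 h were 0.21 for lymph node partners, 0.06 for coupling genes, -0.11 for tissue adhesion and -0.02 for S1P genes, and Gnaq (-1.06), Gna13 (0.53) and Was (0.37) had the smallest p among coupling genes.

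**Figure D5:**
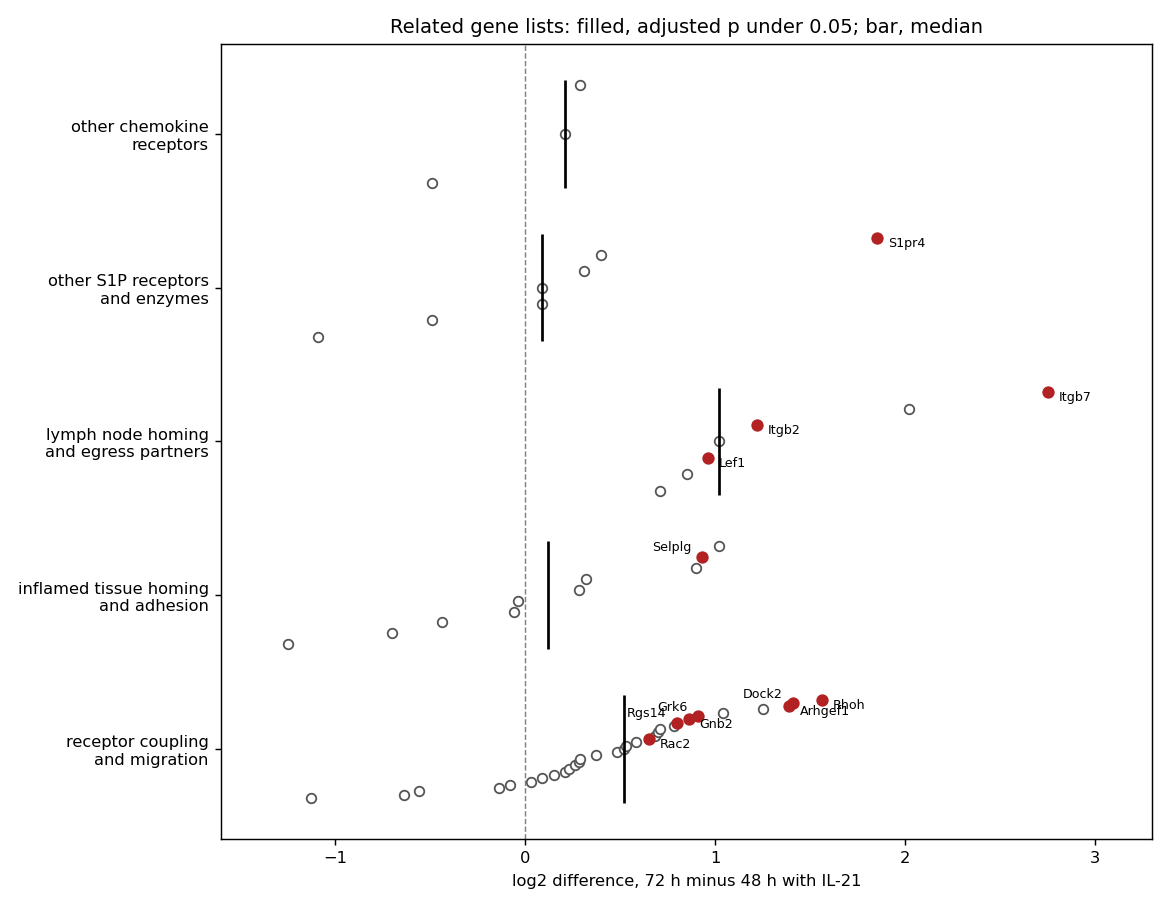
Log2 difference between 72 and 48 h with IL-21 for the genes of 5 related lists that passed the filter, 1 probe set a gene. Filled points passed at an adjusted p under 0.05 and bars are medians, 1.02 for lymph node homing and egress partners and 0.12 for inflamed tissue homing and adhesion.

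For each receptor the genes with the most similar course over the 5 arrays were found by the root mean square difference of centred log2 signals, among 5609 other named genes kept (5610 for S1pr1, which was not kept itself). For Ccr7 they were Ndufv3, Cox7a2l and Dhcr7, at 0.05, 0.07 and 0.09. For Cxcr4 they were Anxa2 (0.22), Ypel3 (0.22) and Ripor2 (0.24), of which Anxa2 read 2087 at 72 h, against 340 and 431 at 48 h with IL-21. For Ccr4 they were Nolc1 (0.13), Polr1a (0.14) and Ppan (0.15), and Polr1a read 34.3 at 72 h, against 170 and 165. All of these genes except Dhcr7 passed in limma at 72 h, beside 11.2% of all probe sets. They were picked on the same 5 arrays for likeness to receptors that passed, so their passing adds no support.

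For Cxcr3 the nearest were Abcb9 (0.17), Vps37b (0.22) and Pstpip1 (0.26), in which replicate 2 was also above replicate 1 in both 48 h groups, as with Abcb9 at 312 and 102 with IL-21 and 243 and 97.7 without. For Ccr6 they were Gata2 (0.34), Artn (0.34) and Cryge (0.39), and for the second probe set of S1pr1 they were Tbxa2r (0.15), Grb7 (0.16) and Bckdha (0.16). Between the receptors themselves the closest pair was S1pr1, by its second probe set, and Cxcr3 (0.38) and the most unlike was Cxcr4 and Ccr4 (2.04).

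Markers of other cells were read beside these results, since Ccr4 and Ccr6 are also known from helper T cells and B cells, and Cxcr4 and Ccr7 from B cells and dendritic cells. The summed signal of 8 of 10 helper and regulatory T cell markers on the array was 99.5 at 72 h, 54.2 and 59.2 with IL-21 at 48 h, and 96.7 and 74.5 without, and Cd4 read 32.6 at 72 h, against 15.9 and 9.39. That of 9 of 10 B cell markers was 1238 at 72 h, 737 and 592 with IL-21 at 48 h and 771 and 496 without. Ighm (868 at 72 h, against 560 and 400 with IL-21 at 48 h) and Cd37 (254 against 70.9 and 93.9) made up most of the higher sum. Cd79b (33.6 against 29.8 and 13.5) was above all 4 arrays at 48 h, and Cd79a (17.7 against 12.9 and 24.8) and Ms4a1 (17.7 against 27.7 and 15.3) were within their range. That of 12 of 12 myeloid and dendritic cell markers was 375, against 300 and 250 with IL-21 at 48 h and 300 and 298 without. Of these, Cd68 (55.4 at 72 h, against 25.3 and 22.9 with IL-21 at 48 h), Itgax (41.3 against 22.1 and 12.7) and Itgam (14.8 against 4.30 and 3.12) were above all 4 arrays at 48 h, Csf1r and Cd14 (38.1 against 60.6 and 55.4) were below them, and Lyz2 read 2.70 against 2.99 and 1.81. H2-Eb1, a class II gene, read 14.1 at 72 h, against 41.5 and 14.0 with IL-21 at 48 h (-0.78), and did not pass. Another class II gene, H2-Ab1, rose to 140, against 60.2 and 58.1 (1.24, limma adjusted p = 0.0256), and so did the B cell list's Cd37 (1.64, limma adjusted p = 0.0176). That of 4 of 7 NK cell markers was 1489, against 147 and 417 with IL-21 at 48 h and 118 and 224 without, most of it Klrd1, which activated CD8 T cells express as well. The part of these cells in the receptor differences was not tested, and in bulk RNA fewer cells of a type and less RNA per cell cannot be told apart.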

How the data were processed

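RNA of 5 samples was measured on 1 array each, an Affymetrix platform with 12488 probe sets. The authors deposited 1 linear intensity per probe set and array, made with MAS5 per the submitters' processing notes. Version, scaling target and detection calls were not used here. The array columns had unequal trimmed means (2% cut from each tail), which shows that no common scaling target holds for the deposited columns. Gene names came from the platform's annotation, updated by Entrez identifier to GRCm38.p6 symbols (10817 of 10833 singly named probe sets matched, 396 had several names and 1193 none).

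An offset of 1.53, the 10th percentile of the values, was used in taking log2. Values were quantile-normalised over the 12422 probe sets that were not controls, and 4969 below the 40th percentile of mean log2 signal were removed. The 3 group means were fitted over 5 arrays, leaving 2 residual degrees of freedom, with limma 3.58.1 in R 4.3.3, with empirical Bayes variances trended on mean signal. Tests were two-sided, and p-values were adjusted by Benjamini-Hochberg over 7453 probe sets. The method was tested on simulated data.

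A list gene with several probe sets was read from the one of highest mean signal. Arrb1 (1.25), Gna13 (0.70) and Gnai2 (0.37) were not called by that rule but had other probe sets called higher at 72 h. These were at 1.76 for Arrb1, 1.06 for Gna13, and 1.08 and 0.96 for Gnai2. Lef1 was called by that rule (0.96), while its second probe set was not (0.87). Named genes were all receptors, up to 4 genes a list and comparison with the smallest p, 7 genes fixed by name and the 3 genes nearest to each receptor. Rgs14, Rac2, Grk6 and Itgae were named after their values were seen. The members, lists and tests were chosen with earlier results of these data known. Alternatives were 2 offsets, 3 scalings, 2 filters, no variance trend, the replicate number as a block and each 48 h array left out.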

Additional observations from a re-analysis of the deposited data

How the results depend on the processing

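Of the probe sets tested at 72 h against 48 h with IL-21, 832 passed, and the count was 2128 in unscaled values, 0 without the variance trend (limma, 1843 at an unadjusted p under 0.05), and between 0 and 465 with each 48 h array left out. Both fits without a 48 h IL-21 array gave 0, with 1703 and 1748 at an unadjusted p under 0.05. For IL-21 against none at 48 h it was 0 as reported (327 at an unadjusted p under 0.05), 696 in unscaled values, all higher with IL-21, and 44 with control scaling, 42 of them lower. Of the 3 receptor calls, 1 was left with the filter at the 60th percentile, since only Ccr7 was tested there, 0 without the variance trend and between 0 and 3 with an array left out. Without the trend Cxcr4 and Ccr4 both had a limma adjusted p of 0.0525 and Ccr7 one of 0.0699. The direction of the 48 h difference turned for Ccr7 (0.16) and Ccr4 (0.18) in unscaled values, where all probe sets had a median of 0.57, and for Cxcr3 with control scaling (-0.20), where it was -0.43, without replicate 1 of the cultures without IL-21 (-0.31) and without replicate 2 of those with it (-0.74, and up to 1.16 with another array left out), none of them past the threshold. Relative to those medians the scaled values were -0.41, -0.39 and 0.23, the signs of the reported differences. The class difference of 2.35 at 72 h was 1.35 with an offset of 16, 2.13 over the mean of all probe sets of a gene and 2.57 without S1pr1, which was chosen after seeing the data. With the replicate number as a block the counts were 1860 at 72 h and 11 at 48 h, and Cxcr3 passed at 72 h (2.24, limma adjusted p = 0.00392). Under the block 6 lymph node partners, 18 coupling genes, 3 tissue adhesion genes and 1 S1P gene rose at 72 h, while 0, 1, 3 and 0 fell. Over all 7453 probe sets 860 rose and 1000 fell in that fit. The labels do not tie the numbers to a shared mouse or day, so the block was not used for the reported values. The replicate 1 minus 2 differences of the 48 h groups correlated across probe sets (r = 0.36), a hint from the data that equal numbers share something. With 1 array at 72 h, the size of the difference is poorly determined for every receptor. Dim signals add to this for Ccr6 and S1pr1, for Cxcr4 at 48 h and for Ccr4 at 72 h. With an offset of 16 the difference of Cxcr4 was 2.01, against 2.98 as reported.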
